A study of Mus musculus with 15 samples.

Results

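Chemokines, interleukins and ligands and receptors of the tumour necrosis factor (TNF) family were examined in 3T3-L1 cells, a mouse preadipocyte line, on day 2 of adipocyte differentiation. The members were all protein-coding mouse genes whose symbol is Ccl, Cxcl, Ccr, Cxcr, Tnfsf, Tnfrsf or Il followed by a number, which gave 167 of the 26301 gene numbers counted. They comprised 36 chemokine ligands, 17 chemokine receptors, 39 interleukins, 41 interleukin receptor chains, 11 TNF ligands, 20 TNF receptors and 3 other genes (Il18bp, Il4i1 and Il4i1b). RNA with poly(A) tails was sequenced in 15 libraries, 3 for each of 5 groups. In the knockdown set, sh-Jmjd1a cells carried a retroviral short hairpin RNA against Jmjd1a (Kdm3a), which encodes the histone H3K9 demethylase JMJD1A, and sh-Empty cells carried the vector without a hairpin. In the rescue set, all 3 groups were sh-Jmjd1a cells that carried a second retrovirus, for LacZ as the control, for JMJD1A(WT) resistant to the hairpin, or for JMJD1A(H1122A), whose iron-coordination site is mutated. The lines were selected with antibiotic after infection and were induced on day 0 with insulin at 1.67 uM, IBMX at 115 ug/mL and dexamethasone at 1 uM. The labels do not say that replicates came from separate cultures, so the p-values measure the spread between these libraries only. CPM values were scaled within each set, so levels are not on one scale across the sets.

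Chemokines are small secreted proteins that bind G protein-coupled receptors and direct the migration of cells. Many interleukins signal through receptor chains that couple to Janus kinases and STAT factors or, in the IL-1 family, to MyD88 and the transcription factor NF-kappaB. TNF receptors act through TRAF and death-domain adaptors. In fat tissue, preadipocytes both secrete and respond to these factors, and IL-1 and TNF are known to restrain adipocyte differentiation.

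Kdm3a itself was at 171, 174 and 185 counts per 1000000 (CPM, scaled by TMM within each set) in the sh-Empty libraries and at 129, 128 and 138 CPM in the sh-Jmjd1a libraries, a log2 fold change of -0.42 ± 0.05 (SE), adjusted p = 2.91e-08. It was at 122, 116 and 118 CPM with LacZ, 1768, 1639 and 1662 CPM with JMJD1A(WT) and 2288, 2199 and 2103 CPM with JMJD1A(H1122A). Both rescue constructs thus stood far above the hairpin lines and also far above sh-Empty, although the sets were scaled apart. Total counts ranged from 11437058 to 25523148 per library. All 8 adipocyte markers fell on knockdown, with summed levels of 5194 to 5280 CPM in sh-Empty and 2647 to 2789 CPM in sh-Jmjd1a libraries, and all 8 rose with JMJD1A(WT) over LacZ and fell with JMJD1A(H1122A) against JMJD1A(WT) and against LacZ. Of 6 fibroblast and preadipocyte markers tested on knockdown, 4 rose and 1 (Dlk1) fell. Fewer cells of a type and less RNA per cell cannot be told apart in such bulk samples, and the part of differentiation state in the results on the members was not tested. The 10 leukocyte and macrophage markers summed to between 2.26 and 5.64 CPM over the 15 libraries, and the 5 endothelial markers to between 0 and 1.06 CPM.

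Many members were silent or nearly so. Within single libraries, 71 to 94 of the 167 members had a count, while 38.2% to 43.1% of all gene numbers had none. Of the 167 members, 52 had no count in any library and 29 more had 1 to 9 counts over all 15, whereas 54 had a mean of at least 1 CPM and 21 of at least 10 CPM. A count of 0 allows up to 3 counts, which is 0.118 to 0.262 CPM depending on the library, and this floor covers counting error only. The filter on low counts left 56 members tested on knockdown and 58 among the rescue libraries, and it left more receptors than ligands. In the rescue set, 23 of 41 interleukin receptor chains and 12 of 20 TNF receptors were tested, against 6 of 39 interleukins and 3 of 11 TNF ligands. Of the chemokine system, 11 of 36 ligands but 2 of 17 receptors (Ccr10 and Cxcr5) were tested.

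Members took 0.321% to 0.369% of all counts, and a handful of genes made up most of this share. Cxcl12, the ligand of the receptor CXCR4, held 48.7% of the members' counts, and Il6st, which encodes the shared signalling chain gp130, held 14.5%. Tnfrsf1a, Il11ra1, Il1r1 and Il1rap followed, and the 6 genes together held 80.5%. Per kilobase of the longest annotated transcript, the mean level over the 15 libraries was 302 CPM per kb for Cxcl12 (262 to 331 across libraries), 97.5 CPM per kb for Il6st (85.7 to 106) and 90.8 CPM per kb for Tnfrsf1a (82.4 to 109). The ranges of Il6st and Tnfrsf1a overlap, whereas that of Cxcl12 stands apart from both. Il11ra1, the receptor chain for IL-11, was next at 55.1 CPM per kb (46.7 to 69.1), and Tnfrsf12a, the TWEAK receptor, followed at 32.1 CPM per kb (23.7 to 40.9). The order below Cxcl12 depended on the length used. Per kilobase of the median annotated transcript, Cxcl12 was at 565 CPM per kb, Tnfrsf1a at 315 CPM per kb, Il11ra1 at 109.8 CPM per kb, Il6st at 97.5 CPM per kb and Il15ra at 63.4 CPM per kb, while Tnfrsf12a, at 33.96 CPM per kb, stood eighth.

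**Figure D1:**
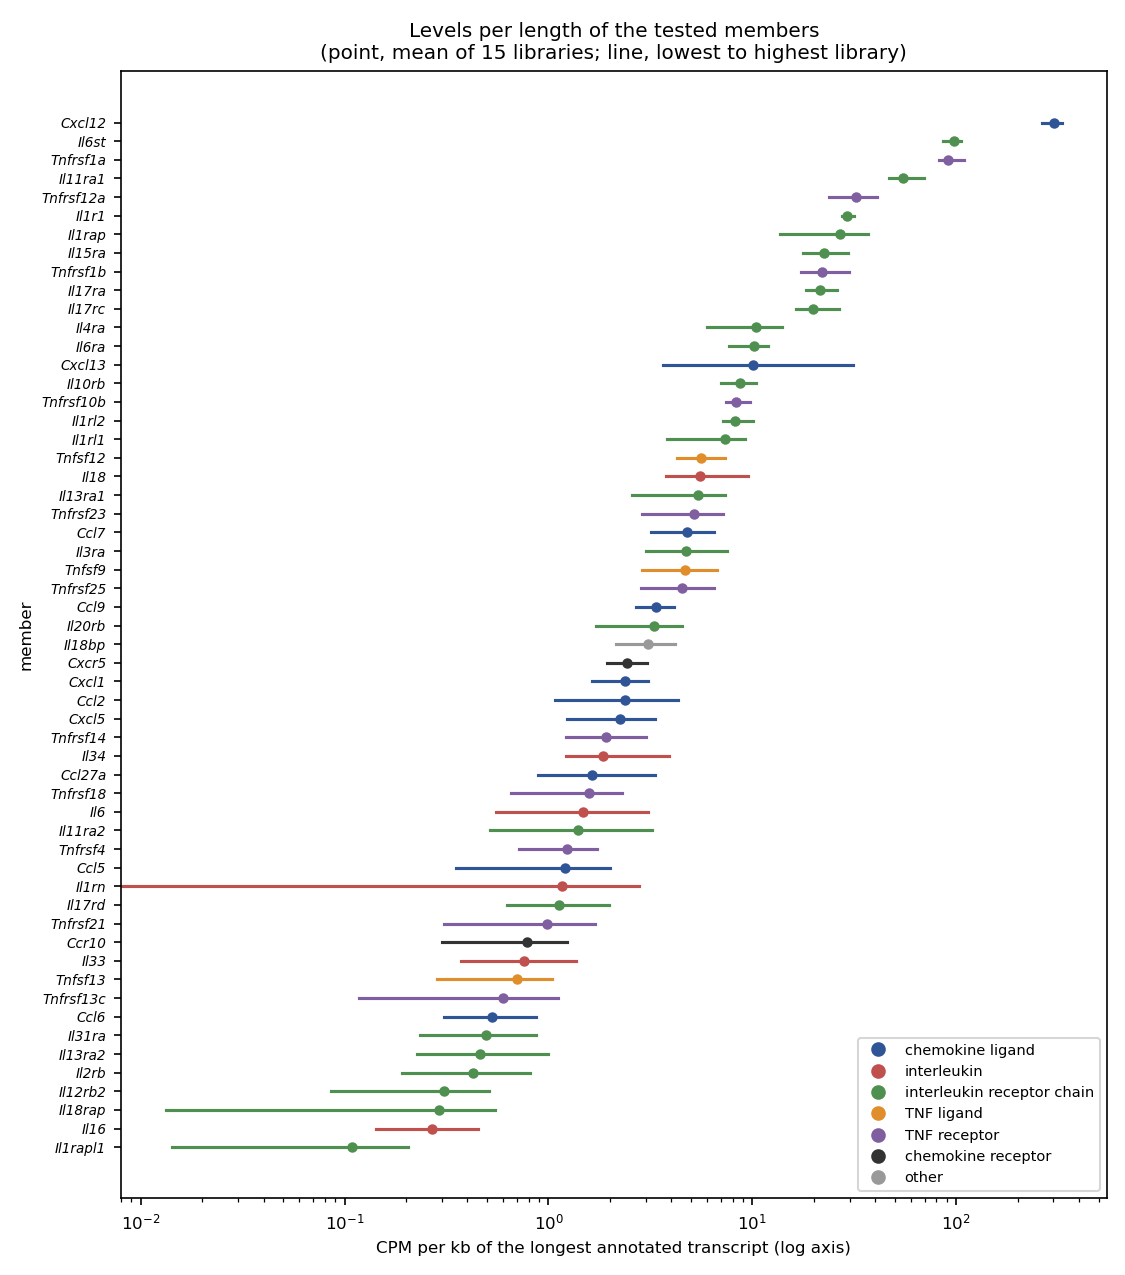
Level per transcript length of the tested members placed on the genome, in CPM per kilobase of the longest annotated transcript on a log x axis, ordered by level and coloured by class; each point is the mean over 15 libraries and each line runs from the lowest to the highest library. Cxcl12 stands highest at 302 CPM per kb, and the lowest library of Il1rn is 0 and lies off the axis.

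Promoters are shown for Il1rl1 and Il18rap, IL-1 family receptor genes on chromosome 1 with Il18r1 between them, which both rose on knockdown. They are also shown for Il6, which also rose, and for Cxcl13, which had the largest fall of the tested members. Each is the RefSeq window (GRCm38.p6, plus strand) from 250 bases before to 50 bases after an annotated start, written 5′ to 3′, and capitals mark any match to GGNNNTTCC on either strand, a core of the NF-kappaB motif. The Il1rl1 windows lie at chr1:40429320-40429619 and chr1:40439379-40439678, that of Il18rap at chr1:40515112-40515411, that of Il6 at chr5:30012864-30013163 and that of Cxcl13 at chr5:95956689-95956988.
Il1rl1, first start: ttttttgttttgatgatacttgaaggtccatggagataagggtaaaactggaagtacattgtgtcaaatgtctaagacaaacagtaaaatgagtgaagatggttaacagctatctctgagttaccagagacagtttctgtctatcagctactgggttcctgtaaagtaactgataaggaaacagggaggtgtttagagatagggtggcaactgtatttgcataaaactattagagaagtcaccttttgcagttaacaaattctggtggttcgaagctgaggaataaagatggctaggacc
Il1rl1, second start: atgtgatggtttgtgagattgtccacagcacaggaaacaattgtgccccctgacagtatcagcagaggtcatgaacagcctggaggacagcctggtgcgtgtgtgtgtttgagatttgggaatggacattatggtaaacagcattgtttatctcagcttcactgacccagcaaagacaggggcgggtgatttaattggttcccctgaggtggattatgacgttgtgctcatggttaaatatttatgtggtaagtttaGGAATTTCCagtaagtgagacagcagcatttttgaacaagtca
Il18rap: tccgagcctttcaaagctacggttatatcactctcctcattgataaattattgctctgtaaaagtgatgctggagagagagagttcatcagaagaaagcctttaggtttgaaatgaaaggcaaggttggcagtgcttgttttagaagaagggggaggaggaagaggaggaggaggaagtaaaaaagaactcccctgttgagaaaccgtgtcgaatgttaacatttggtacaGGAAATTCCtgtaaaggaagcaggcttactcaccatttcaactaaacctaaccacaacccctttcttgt
Il6: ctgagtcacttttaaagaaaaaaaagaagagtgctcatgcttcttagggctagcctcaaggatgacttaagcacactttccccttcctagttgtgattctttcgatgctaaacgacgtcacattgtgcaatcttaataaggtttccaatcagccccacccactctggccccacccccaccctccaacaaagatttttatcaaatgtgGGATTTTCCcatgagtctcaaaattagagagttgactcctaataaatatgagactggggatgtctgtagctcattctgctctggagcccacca
Cxcl13: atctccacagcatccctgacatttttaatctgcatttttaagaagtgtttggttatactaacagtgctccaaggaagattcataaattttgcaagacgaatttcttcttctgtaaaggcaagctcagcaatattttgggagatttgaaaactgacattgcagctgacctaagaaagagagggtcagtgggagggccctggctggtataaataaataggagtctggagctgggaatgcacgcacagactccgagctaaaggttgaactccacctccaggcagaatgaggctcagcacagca
The match began at base -43 from the start in Il6, at base -19 in Il18rap and at base 8 in the second Il1rl1 window, and no match was present in the first Il1rl1 window or in the Cxcl13 window. Over all promoters, 18.5% of 32851 windows of the same length held GGNNNTTCC, against 27.9% of the 154 windows of 128 members and 33.3% of the 57 windows of 44 tested members. The stricter core GGANNTTCC, whose matches are all matches of the first as well, was in 4.26% of all windows, 12.3% of member windows and 10.5% of tested-member windows. The tested members that held it were Cxcl1, Il16, Il18rap, Il1rl1, Il1rl2 and Il6. The genes printed were chosen with their values known, and matches did not follow the direction of change throughout. Of the other members that rose on knockdown, Il1rap, Il33, Il6ra and Il17rd held neither core in their windows and Il13ra1, Il1rn, Il4ra and Tnfrsf25 held GGNNNTTCC alone. Of those that fell, Il17rc and Tnfrsf1a held GGNNNTTCC, and Cxcl12, Il15ra, Il18, Il20rb, Tnfrsf12a and Tnfrsf1b held neither. Ccl7, Cxcl5, Tnfsf9, Il10rb, Il17ra and Il34 were not matched to a window. These matches are descriptions of sequence and no binding was measured.

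Knockdown of Jmjd1a moved members in both directions. Of the 56 tested members, 14 (25%) were higher and 12 (21.4%) lower after knockdown at an adjusted p under 0.05, beside 22.3% higher and 23.9% lower of all 12272 genes tested. The median log2 fold change was 0.07 over the tested members and near 0 (-0.0032) over all genes, and the median size without sign was 0.41 over the members and 0.22 over all genes. By class, 7 interleukin receptor chains were higher and 5 lower of 22 (54.5% called), and 3 interleukins higher and 2 lower of 6 (83.3%). These counts include Il1rn, Il18rap and Il6, which passed the filter on low counts only through the sh-Jmjd1a libraries, where they were high. The shares called are therefore descriptions. Without sh-Empty replicate 3 the members higher numbered 9. Adjusted p-values are from the quasi-likelihood test of edgeR, adjusted over all genes tested by the method of Benjamini and Hochberg, and fold changes are given on the log2 scale with their standard errors.

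Expressing JMJD1A(WT) changed fewer members. Against LacZ, 6 of 58 were higher and 6 lower (10.3% each), beside 4.98% and 4.52% of all 12557 genes tested. Between the constructs, 13 members (22.4%) were higher and 7 (12.1%) lower when the mutant was set against JMJD1A(WT), beside 12.1% and 11.7% of all genes. Against LacZ, JMJD1A(H1122A) gave 6 members higher (10.3%), beside 4.78% of all genes, and 5 with DESeq2. None was lower by edgeR or DESeq2, beside 4.46% of all genes. In that comparison 10 of the 58 had an unadjusted p under 0.05 in edgeR, and without JMJD1A(H1122A) replicate 1 the higher members numbered 3. The 3 rescue comparisons share libraries pairwise, so their calls are not independent of each other.

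**Figure D2:**
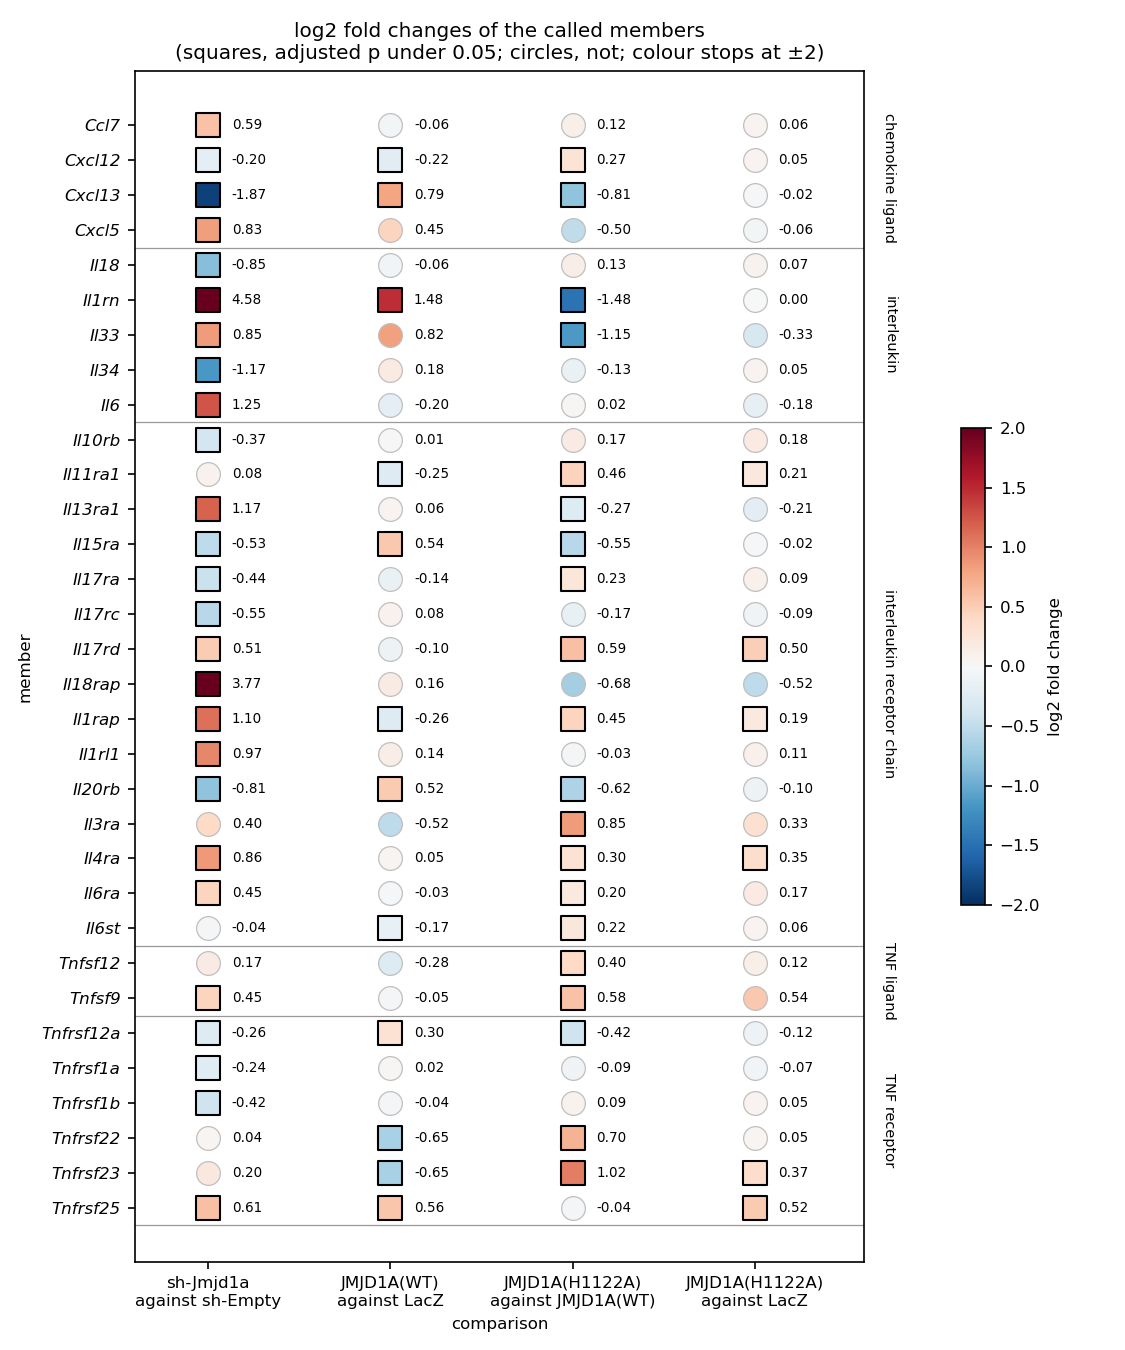
Log2 fold change of each member called in at least 1 comparison (y axis, by class) in the 4 comparisons (x axis), printed beside each mark and given by its colour, which stops at 2 in either direction; squares passed an adjusted p of 0.05 and circles did not. Il1rn is highest on knockdown at 4.58 and Cxcl13 lowest at -1.87, while squares are fewest for JMJD1A(H1122A) against LacZ.

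Among chemokine ligands, 2 of 10 tested rose on knockdown (Ccl7 and Cxcl5) and 2 fell (Cxcl12 and Cxcl13). Cxcl13, which attracts B cells through CXCR5 (chr5:96385945-96390086, plus strand in mm9, as are all gene positions given here), was at 28.02, 28.7 and 36.45 CPM in sh-Empty and 8.20, 8.95 and 8.55 CPM in sh-Jmjd1a cells. Every sh-Jmjd1a library lay below every sh-Empty library, and the log2 fold change was -1.87 ± 0.12 (SE), adjusted p = 3.27e-13, the largest fall among members with a mean of at least 1 CPM. In the rescue set Cxcl13 was at 4.80, 5.81 and 5.16 CPM with LacZ, 9.18, 10.47 and 8.20 CPM with JMJD1A(WT) and 4.38, 6.63 and 4.28 CPM with JMJD1A(H1122A). JMJD1A(WT) libraries were all above the other 2 groups, with log2 fold changes of 0.79 ± 0.17 (SE), adjusted p = 7.50e-04, against LacZ and -0.81 ± 0.17 (SE), adjusted p = 3.46e-04, for JMJD1A(H1122A) against JMJD1A(WT). The 3 JMJD1A(WT) libraries lay below the sh-Empty libraries of the other set, which was scaled apart.

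Cxcl12 (chr6:117118553-117131385, plus strand) was abundant throughout, at 1846, 1835 and 1806 CPM in sh-Empty and 1598, 1626 and 1560 CPM in sh-Jmjd1a cells. The groups did not overlap, and the log2 fold change was -0.20 ± 0.03 (SE), adjusted p = 1.89e-05. With the constructs Cxcl12 was at 1747, 1747 and 1771 CPM with LacZ, 1477, 1547 and 1498 CPM with JMJD1A(WT) and 1828, 1862 and 1767 CPM with JMJD1A(H1122A), lowest in all JMJD1A(WT) libraries. JMJD1A(WT) thus lowered it against LacZ (-0.22 ± 0.03 (SE), adjusted p = 1.25e-06) and JMJD1A(H1122A) stood above JMJD1A(WT) (0.27 ± 0.03 (SE), adjusted p = 4.18e-09). The level therefore fell both when JMJD1A was knocked down and when JMJD1A(WT) was expressed from the second virus.

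Ccl7, a monocyte attractant, was at 2.995, 2.93 and 2.91 CPM in sh-Empty and 3.92, 5.001 and 4.35 CPM in sh-Jmjd1a cells, above sh-Empty in every library (0.59 ± 0.22 (SE), adjusted p = 0.0304). For Ccl7 the call was lost without sh-Empty replicate 1 (0.61), sh-Empty replicate 2 (0.59), sh-Empty replicate 3 (0.58) or without sh-Jmjd1a replicate 2 (0.50), where the values in brackets are log2 fold changes. Cxcl5, a neutrophil attractant, was at 3.17, 2.07 and 2.65 CPM in sh-Empty and 4.27, 4.19 and 5.52 CPM in sh-Jmjd1a cells, with no overlap (0.83 ± 0.24 (SE), adjusted p = 0.00466). Neither passed in a rescue comparison. Ccl2, a chemokine of monocytes, was at 4.67, 3.02 and 4.53 CPM in sh-Empty and 1.66, 2.74 and 4.74 CPM in sh-Jmjd1a cells, and the overlapping groups gave a log2 difference of -0.41 ± 0.28 (SE), adjusted p = 0.249. Ccl9 was at 11.6, 9.14 and 9.90 CPM in sh-Empty and 11.2, 9.28 and 9.71 CPM in sh-Jmjd1a cells, likewise overlapping.

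The chemokine receptors tested did not pass in any comparison. Cxcr5, the CXCL13 receptor, was at 7.67, 5.34 and 5.83 CPM in sh-Empty and 7.76, 6.61 and 6.29 CPM in sh-Jmjd1a cells. With the constructs Cxcr5 was at 5.53, 6.51 and 6.22 CPM with LacZ, 5.95, 7.43 and 5.75 CPM with JMJD1A(WT) and 5.09, 7.95 and 5.05 CPM with JMJD1A(H1122A), and all groups overlapped. Ccr10, the receptor of skin and mucosal chemokines, was at 0.529, 1.98 and 0.518 CPM in sh-Empty and 1.40, 2.02 and 1.79 CPM in sh-Jmjd1a cells and gave a log2 difference of 0.85 ± 0.43 (SE), adjusted p = 0.108. One sh-Empty library lay with the sh-Jmjd1a libraries, and without it (replicate 2) the difference was 1.72 with an adjusted p of 0.00621. Rescue libraries had Ccr10 at 2.13, 0.637 and 1.13 CPM with LacZ, 1.10, 1.09 and 1.71 CPM with JMJD1A(WT) and 1.10, 1.75 and 1.46 CPM with JMJD1A(H1122A), with all groups overlapping.

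Of 6 interleukins tested, Il1rn, Il33 and Il6 rose on knockdown and Il18 and Il34 fell, while Il16 did not pass. Il1rn encodes the IL-1 receptor antagonist, which blocks IL-1 binding (chr2:24192373-24207014, plus strand), and was at 0.352, 0 and 0.0647 CPM in sh-Empty and 3.14, 3.06 and 3.81 CPM in sh-Jmjd1a cells. It was close to absent in sh-Empty and present in every other library, with 123 counts over the 3 sh-Jmjd1a libraries and 5 over the 3 sh-Empty libraries, a ratio of CPM of 25.97 (95% counting interval 10.8 to 81.4). The log2 fold change of 4.58 ± 0.53 (SE), adjusted p = 2.31e-08, depends on the fit's prior because of the low sh-Empty counts, and it ran from 4.10 to 6.17 when single libraries were left out, the highest without sh-Empty replicate 1, which held 4 of the 5 counts. In the knockdown set Il1rn passed the filter on low counts only through the sh-Jmjd1a libraries, where it was high, so its call there is given as a description. With LacZ and the rescue constructs Il1rn was at 1.999, 2.62 and 2.33 CPM with LacZ, 6.91, 5.24 and 6.84 CPM with JMJD1A(WT) and 2.43, 2.26 and 2.23 CPM with JMJD1A(H1122A). JMJD1A(WT) raised it over LacZ (1.48 ± 0.21 (SE), adjusted p = 7.27e-07) and the mutant stood below JMJD1A(WT) (-1.48 ± 0.22 (SE), adjusted p = 6.39e-07), with no overlap in either comparison.

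Il33, the alarmin ligand of ST2 (chr19:29999604-30035194, plus strand), was at 1.32, 1.21 and 1.42 CPM in sh-Empty and 2.27, 2.26 and 2.64 CPM in sh-Jmjd1a cells and did not overlap between the groups (0.85 ± 0.31 (SE), adjusted p = 0.0266). For Il33 this call was lost without sh-Empty replicate 1 (0.85), sh-Empty replicate 2 (0.80), sh-Empty replicate 3 (0.92) or without sh-Jmjd1a replicate 3 (0.77). With the rescue constructs it was at 1.73, 1.42 and 1.70 CPM with LacZ, 3.45, 3.44 and 2.25 CPM with JMJD1A(WT) and 1.02, 1.82 and 0.943 CPM with JMJD1A(H1122A). JMJD1A(H1122A) lay below JMJD1A(WT) in every library (-1.15 ± 0.31 (SE), adjusted p = 0.00501), whereas JMJD1A(WT) against LacZ gave 0.82 ± 0.29 (SE), adjusted p = 0.0609, and without JMJD1A(WT) replicate 3 gave 1.09 with an adjusted p of 0.0218.

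Il6, the proinflammatory ligand of IL-6 receptor and gp130 (chr5:30339701-30346508, plus strand), was low, at 0.881, 0.603 and 1.10 CPM in sh-Empty and 1.57, 1.37 and 3.34 CPM in sh-Jmjd1a cells. The sh-Jmjd1a libraries were higher but spread widely, with 78 counts over the 3 sh-Jmjd1a libraries and 34 over the 3 sh-Empty libraries, a ratio of CPM of 2.42 (95% counting interval 1.60 to 3.74) and a log2 fold change of 1.25 ± 0.41 (SE), adjusted p = 0.0127. The Il6 call was lost without sh-Empty replicate 2 (1.07) or without sh-Jmjd1a replicate 3 (0.73). In the knockdown set Il6 passed the filter on low counts only through the sh-Jmjd1a libraries, where it was higher, so its call there is given as a description. In the rescue set Il6 was at 1.07, 2.34 and 2.26 CPM with LacZ, 1.62, 1.33 and 1.79 CPM with JMJD1A(WT) and 2.11, 1.75 and 1.03 CPM with JMJD1A(H1122A), and the 3 groups overlapped.

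Il18, an IL-1 family cytokine that is secreted after inflammasome cleavage (chr9:50383378-50389942, plus strand), was at 5.55, 5.60 and 6.67 CPM in sh-Empty and 3.75, 3.55 and 2.72 CPM in sh-Jmjd1a cells, lower in every sh-Jmjd1a library (-0.85 ± 0.21 (SE), adjusted p = 0.00113). With the constructs Il18 was at 3.33, 3.12 and 3.61 CPM with LacZ, 4.04, 2.66 and 3.03 CPM with JMJD1A(WT) and 3.52, 3.35 and 3.68 CPM with JMJD1A(H1122A), with all groups overlapping (-0.06 ± 0.22 (SE), adjusted p = 0.920, for JMJD1A(WT) against LacZ). Il34, the second ligand of the macrophage receptor CSF1R (chr8:113265729-113329824, minus strand), was at 4.14, 6.12 and 6.99 CPM in sh-Empty and 2.62, 2.58 and 2.64 CPM in sh-Jmjd1a cells. It fell to about the same level in all sh-Jmjd1a libraries (-1.17 ± 0.23 (SE), adjusted p = 1.36e-04) and was at 2.20, 3.19 and 2.48 CPM with LacZ, 3.38, 2.58 and 2.92 CPM with JMJD1A(WT) and 2.19, 2.62 and 3.34 CPM with JMJD1A(H1122A), which overlapped. Exons of Il34 overlap those of opposite-strand transcripts over 3.83% of their length, and the strand setting of the counting is not given.

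Among interleukin receptor chains, 7 rose and 5 fell on knockdown, with 3 of the IL-1 family among the former. Il1rap, the accessory chain shared by the receptors of IL-1, IL-33 and IL-36 (chr16:26581790-26730203, plus strand), was at 63.2, 61.6 and 63.3 CPM in sh-Empty and 135, 129.5 and 140 CPM in sh-Jmjd1a cells. All sh-Jmjd1a libraries lay above all sh-Empty libraries, at a log2 fold change of 1.10 ± 0.05 (SE), adjusted p = 4.64e-16. With the constructs Il1rap was at 138, 138 and 135 CPM with LacZ, 109, 115 and 119 CPM with JMJD1A(WT) and 149, 167 and 153 CPM with JMJD1A(H1122A). JMJD1A(WT) lowered it below LacZ (-0.26 ± 0.05 (SE), adjusted p = 1.47e-04), and JMJD1A(H1122A) stood above JMJD1A(WT) (0.45 ± 0.05 (SE), adjusted p = 5.39e-10). Exons of an opposite-strand gene cover 4.86% of those of Il1rap.

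On mouse chromosome 1 the IL-1 receptor genes lie side by side on the plus strand in the order Il1r2, Il1r1, Il1rl2, Il1rl1, Il18r1 and Il18rap, of which Il1rl1 and Il18rap rose. Il1rl1, which encodes the IL-33 receptor ST2 (chr1:40486415-40522260, plus strand), was at 22.6, 20.2 and 21.8 CPM in sh-Empty and 43.7, 41.9 and 41.3 CPM in sh-Jmjd1a cells, without overlap (0.97 ± 0.08 (SE), adjusted p = 6.58e-11). Its level with the rescue constructs was 40.6, 44.2 and 38.47 CPM with LacZ, 45.8, 47.4 and 43.4 CPM with JMJD1A(WT) and 49.01, 46.1 and 37.01 CPM with JMJD1A(H1122A), and neither JMJD1A(WT) against LacZ (0.14 ± 0.08 (SE), adjusted p = 0.333) nor the mutant against JMJD1A(WT) (-0.03 ± 0.08 (SE), adjusted p = 0.822) passed. Il18rap, the accessory chain of the IL-18 receptor (chr1:40572207-40608550, plus strand), was near 0 in sh-Empty, at 0.0881, 0.259 and 0.0647 CPM in sh-Empty and 1.92, 2.5 and 1.32 CPM in sh-Jmjd1a cells. It had 70 counts over the 3 sh-Jmjd1a libraries and 5 over the 3 sh-Empty libraries, a ratio of CPM of 14.8 (95% counting interval 6.04 to 46.9), with a fitted log2 fold change of 3.77 ± 0.59 (SE), adjusted p = 4.20e-06. Without single libraries this was 3.37 to 4.51, the highest without sh-Empty replicate 2, and like Il1rn it passed the filter only through the sh-Jmjd1a libraries.

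Il18rap was present in every rescue library, at 2.67, 2.12 and 0.566 CPM with LacZ, 1.98, 2.11 and 1.98 CPM with JMJD1A(WT) and 1.17, 1.39 and 1.20 CPM with JMJD1A(H1122A). The mutant libraries lay below those of JMJD1A(WT), which did not pass (-0.68 ± 0.37 (SE), adjusted p = 0.191), and LacZ overlapped both. The signalling IL-1 receptor Il1r1 did not pass, at 146, 145 and 152 CPM in sh-Empty and 148, 142 and 141 CPM in sh-Jmjd1a cells (-0.04 ± 0.05 (SE), adjusted p = 0.535), nor did Il1rl2, the IL-36 receptor chain, at 15.9, 16.6 and 16.51 CPM in sh-Empty and 15.3, 16.7 and 19.6 CPM in sh-Jmjd1a cells (0.08 ± 0.11 (SE), adjusted p = 0.584). The decoy receptor Il1r2 (106 counts in all) and Il18r1, the ligand-binding chain of the IL-18 receptor (15 counts in all), were too low to test. Of this row, the promoter windows of Il18rap and the second start of Il1rl1, printed above, hold the GGANNTTCC core, as do windows of Il1r2 and Il1rl2.

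Both chains of the type II IL-4 receptor rose on knockdown. Il4ra, the IL-4 receptor alpha chain (chr7:132695785-132722986, plus strand), was at 30.7, 31.98 and 32.3 CPM in sh-Empty and 63.2, 56.54 and 53.46 CPM in sh-Jmjd1a cells (0.86 ± 0.08 (SE), adjusted p = 1.55e-10). Il13ra1, its partner that binds IL-13 (chrX:33652105-33711254, plus strand), was at 11.7, 12.9 and 9.58 CPM in sh-Empty and 25.99, 22.9 and 27.3 CPM in sh-Jmjd1a cells (1.17 ± 0.12 (SE), adjusted p = 2.02e-09). No sh-Jmjd1a library of either gene overlapped sh-Empty. Il4ra was at 54.7, 52.4 and 52.8 CPM with LacZ, 54.8, 52.1 and 57.3 CPM with JMJD1A(WT) and 70.8, 62.48 and 70.52 CPM with JMJD1A(H1122A), higher with JMJD1A(H1122A) than with JMJD1A(WT) (0.30 ± 0.06 (SE), adjusted p = 2.65e-04) or LacZ (0.35 ± 0.06 (SE), adjusted p = 1.81e-04). Il13ra1 was at 21.46, 21.3 and 22.6 CPM with LacZ, 22.04, 22.1 and 23.48 CPM with JMJD1A(WT) and 20.04, 19.4 and 16.96 CPM with JMJD1A(H1122A), and was lower with the mutant than with JMJD1A(WT) (-0.27 ± 0.10 (SE), adjusted p = 0.0364). That Il13ra1 call was lost without JMJD1A(H1122A) replicate 2 (-0.29), JMJD1A(H1122A) replicate 3 (-0.20), JMJD1A(WT) replicate 1 (-0.28) or without JMJD1A(WT) replicate 3 (-0.23). Neither gene passed for JMJD1A(WT) against LacZ.

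The gp130 system genes Il6st and Il11ra1 passed with the constructs but not on knockdown. Il6st (chr13:113265216-113297068, plus strand) was at 537, 532 and 518 CPM in sh-Empty and 514, 510.3 and 515 CPM in sh-Jmjd1a cells, slightly lower in each sh-Jmjd1a library, which did not pass (-0.04 ± 0.04 (SE), adjusted p = 0.350). It was at 514, 498 and 520.3 CPM with LacZ, 459, 446 and 458 CPM with JMJD1A(WT) and 551, 538 and 502 CPM with JMJD1A(H1122A), with every JMJD1A(WT) library lowest (-0.17 ± 0.04 (SE), adjusted p = 0.00124, against LacZ; 0.22 ± 0.04 (SE), adjusted p = 7.66e-06, for the mutant against JMJD1A(WT)). Il11ra1 (chr4:41647021-41716347, plus strand) was at 138, 132 and 133 CPM in sh-Empty and 147, 148 and 133 CPM in sh-Jmjd1a cells (0.08 ± 0.05 (SE), adjusted p = 0.174; without sh-Jmjd1a replicate 3 the log2 value was 0.15 with an adjusted p of 0.00770). The difference between the sets passed for Il6st (-0.20 ± 0.05 (SE), adjusted p = 0.00171) and not for Il11ra1 (-0.15 ± 0.07 (SE), adjusted p = 0.0734).

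With the constructs Il11ra1 was at 147, 146 and 148 CPM with LacZ, 126, 123 and 122 CPM with JMJD1A(WT) and 168, 163 and 180 CPM with JMJD1A(H1122A). JMJD1A(WT) stood below LacZ (-0.25 ± 0.05 (SE), adjusted p = 9.30e-05) and JMJD1A(H1122A) above both JMJD1A(WT) (0.46 ± 0.05 (SE), adjusted p = 5.64e-11) and LacZ (0.21 ± 0.05 (SE), adjusted p = 0.00147). Il11ra1 has a near-identical paralog, Il11ra2, so reads may have been split between them. Il6ra, the IL-6 binding chain, rose on knockdown from 29.4, 26.03 and 25.7 CPM in sh-Empty to 39.4, 35.6 and 35.4 CPM in sh-Jmjd1a cells (0.45 ± 0.08 (SE), adjusted p = 5.96e-05). It was at 32.52, 34.1 and 36.8 CPM with LacZ, 34.2, 32.2 and 34.6 CPM with JMJD1A(WT) and 37.3, 39.3 and 40.01 CPM with JMJD1A(H1122A), and its call for the mutant against JMJD1A(WT) (0.20 ± 0.08 (SE), adjusted p = 0.0477) was lost without any 1 of the 6 libraries, with values from 0.17 to 0.23.

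Il15ra, the high-affinity chain that presents IL-15 (chr2:11626914-11655613, plus strand), was at 59.2, 63.8 and 66.9 CPM in sh-Empty and 42.9, 44.3 and 45.1 CPM in sh-Jmjd1a cells. It fell without overlap (-0.53 ± 0.07 (SE), adjusted p = 1.99e-07) and in the rescue set was at 42.52, 46.45 and 43.4 CPM with LacZ, 66.8, 67.9 and 59.1 CPM with JMJD1A(WT) and 44.2, 45.2 and 41.04 CPM with JMJD1A(H1122A). JMJD1A(WT) raised it over LacZ in every library (0.54 ± 0.07 (SE), adjusted p = 4.63e-08), and the mutant stood below JMJD1A(WT) (-0.55 ± 0.07 (SE), adjusted p = 1.44e-08) and overlapped LacZ. Il20rb, a chain of the receptors for IL-19, IL-20 and IL-24 (chr9:100358138-100387207, minus strand), was at 12.51, 11.03 and 10.2 CPM in sh-Empty and 4.80, 5.65 and 8.39 CPM in sh-Jmjd1a cells (-0.81 ± 0.17 (SE), adjusted p = 2.63e-04). It was at 8.40, 8.496 and 8.34 CPM with LacZ, 12.6, 12.6 and 11.47 CPM with JMJD1A(WT) and 7.36, 7.66 and 8.57 CPM with JMJD1A(H1122A), with JMJD1A(WT) above both other groups (0.52 ± 0.13 (SE), adjusted p = 0.00456, against LacZ; -0.62 ± 0.14 (SE), adjusted p = 4.28e-04, for the mutant against JMJD1A(WT)).

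Receptor chains for IL-17 moved apart. Il17ra, the common IL-17 receptor chain, was at 104, 101 and 100.3 CPM in sh-Empty and 76.8, 75.4 and 72.6 CPM in sh-Jmjd1a cells and fell (-0.44 ± 0.05 (SE), adjusted p = 1.06e-07). Il17rc, its partner for IL-17A and IL-17F, was at 60.7, 54.04 and 60.9 CPM in sh-Empty and 37.7, 40.9 and 41.49 CPM in sh-Jmjd1a cells and fell (-0.55 ± 0.07 (SE), adjusted p = 2.41e-07). Neither overlapped between the groups. Il17rd, also known as Sef, which is an inhibitor of fibroblast growth factor signalling, was at 6.87, 5.17 and 5.24 CPM in sh-Empty and 7.76, 6.78 and 9.79 CPM in sh-Jmjd1a cells and rose with an overlap (0.51 ± 0.18 (SE), adjusted p = 0.0206). For Il17rd the call was lost without sh-Empty replicate 2 (0.46), sh-Empty replicate 3 (0.43) or without sh-Jmjd1a replicate 3 (0.35).

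With the constructs Il17ra was at 88.1, 81.9 and 81.8 CPM with LacZ, 76.8, 77.2 and 75.1 CPM with JMJD1A(WT) and 89.3, 87.3 and 92.8 CPM with JMJD1A(H1122A). Il17rd was at 10.3, 8.78 and 9.90 CPM with LacZ, 10.1, 9.85 and 8.05 CPM with JMJD1A(WT) and 16.3, 13.2 and 11.4 CPM with JMJD1A(H1122A). Both were higher with JMJD1A(H1122A) than with JMJD1A(WT), at 0.23 ± 0.05 (SE), adjusted p = 8.75e-04, for Il17ra and 0.59 ± 0.14 (SE), adjusted p = 9.09e-04, for Il17rd. Of the other chains called, Il10rb, shared by the receptors of IL-10 and related cytokines, was at 26.52, 28.7 and 29.2 CPM in sh-Empty and 22.3, 19.6 and 23.4 CPM in sh-Jmjd1a cells and fell (-0.37 ± 0.09 (SE), adjusted p = 0.00139); its exons share 14.96% of their length with Ifnar2 on the same strand. Il3ra, the IL-3 binding chain, was higher with JMJD1A(H1122A), at 10.49, 7.51 and 7.11 CPM, than with JMJD1A(WT), at 4.19, 4.92 and 4.78 CPM (0.85 ± 0.18 (SE), adjusted p = 2.76e-04), and at 6.07, 7.86 and 6.15 CPM with LacZ.

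Of 3 TNF ligands tested, Tnfsf9 and Tnfsf12 each gave calls that were lost when single libraries were left out. Tnfsf9, the 4-1BB ligand, was at 4.85, 5.86 and 4.73 CPM in sh-Empty and 5.67, 6.94 and 8.24 CPM in sh-Jmjd1a cells, with an overlap (0.45 ± 0.19 (SE), adjusted p = 0.0466). The Tnfsf9 call was lost without sh-Empty replicate 1 (0.42), sh-Empty replicate 3 (0.38), sh-Jmjd1a replicate 2 (0.46) or without sh-Jmjd1a replicate 3 (0.32). It was at 5.13, 5.81 and 3.82 CPM with LacZ, 5.29, 3.52 and 5.13 CPM with JMJD1A(WT) and 7.05, 6.93 and 7.54 CPM with JMJD1A(H1122A), higher with the mutant than with JMJD1A(WT) (0.58 ± 0.18 (SE), adjusted p = 0.0146), a call lost without JMJD1A(H1122A) replicate 3 (0.55) or without JMJD1A(WT) replicate 2 (0.46). Against LacZ the mutant gave 0.54 ± 0.19 (SE), adjusted p = 0.0633, and 0.67 with an adjusted p of 0.0432 without LacZ replicate 2.

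Tnfsf12, which encodes TWEAK, was at 7.14, 7.84 and 7.12 CPM in sh-Empty and 7.76, 8.87 and 8.08 CPM in sh-Jmjd1a cells (0.17 ± 0.15 (SE), adjusted p = 0.399). With the constructs Tnfsf12 was at 8.40, 8.001 and 8.84 CPM with LacZ, 7.27, 6.10 and 7.19 CPM with JMJD1A(WT) and 10.6, 8.46 and 8.40 CPM with JMJD1A(H1122A). Its call for the mutant against JMJD1A(WT) (0.40 ± 0.15 (SE), adjusted p = 0.0497) was lost without any 1 of the 6 libraries, with values from 0.28 to 0.46, and exons of the same-strand gene BC096441 cover 48.3% of those of Tnfsf12.

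Of 12 TNF receptors tested on knockdown, Tnfrsf1a, Tnfrsf1b and Tnfrsf12a fell and Tnfrsf25 rose. Tnfrsf1a, TNF receptor 1 with its death domain (chr6:125299380-125312502, plus strand), was at 235, 217 and 214 CPM in sh-Empty and 190.2, 194 and 179.7 CPM in sh-Jmjd1a cells, without overlap (-0.24 ± 0.05 (SE), adjusted p = 9.79e-05). Tnfrsf1b, TNF receptor 2, was at 108, 114 and 109 CPM in sh-Empty and 81.99, 79.53 and 86.1 CPM in sh-Jmjd1a cells, also without overlap (-0.42 ± 0.05 (SE), adjusted p = 2.09e-07). Rescue libraries had Tnfrsf1a at 187, 187 and 199.8 CPM with LacZ, 195, 202 and 188 CPM with JMJD1A(WT) and 181, 178 and 189 CPM with JMJD1A(H1122A). They had Tnfrsf1b at 73.2, 74.6 and 77.2 CPM with LacZ, 78.8, 66.4 and 73.4 CPM with JMJD1A(WT) and 81.7, 75.3 and 76.51 CPM with JMJD1A(H1122A). None of the 3 comparisons there passed for either gene, and the groups overlapped.

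Tnfrsf12a, the receptor of TWEAK (chr17:23812414-23814416, minus strand), was at 37.9, 32.7 and 39.4 CPM in sh-Empty and 31.8, 33.4 and 27.3 CPM in sh-Jmjd1a cells, which overlapped (-0.26 ± 0.09 (SE), adjusted p = 0.0176). This Tnfrsf12a call was lost with DESeq2, and without sh-Empty replicate 1 (-0.23), sh-Empty replicate 3 (-0.20) or sh-Jmjd1a replicate 3 (-0.17). It was at 28.4, 27.8 and 26.7 CPM with LacZ, 34.9, 32.9 and 34.2 CPM with JMJD1A(WT) and 26.7, 22.8 and 27.1 CPM with JMJD1A(H1122A), with JMJD1A(WT) above LacZ (0.30 ± 0.08 (SE), adjusted p = 0.00867), lost without LacZ replicate 3 (0.28), and above the mutant (-0.42 ± 0.08 (SE), adjusted p = 1.22e-04). Exons of the opposite-strand gene Hcfc1r1 cover 8.10% of those of Tnfrsf12a.

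Tnfrsf25, death receptor 3, was at 4.93, 5.60 and 4.73 CPM in sh-Empty and 7.33, 5.73 and 9.95 CPM in sh-Jmjd1a cells (0.61 ± 0.20 (SE), adjusted p = 0.0118), and the call was lost without sh-Empty replicate 3 (0.54) or without sh-Jmjd1a replicate 3 (0.37). At 6.53, 6.37 and 5.87 CPM with LacZ, 9.18, 9.85 and 8.94 CPM with JMJD1A(WT) and 9.79, 6.78 and 10.7 CPM with JMJD1A(H1122A), it was higher with JMJD1A(WT) than with LacZ (0.56 ± 0.16 (SE), adjusted p = 0.0144), a call lost without LacZ replicate 3 (0.52). Tnfrsf23, a decoy receptor for TRAIL (chr7:150851714-150871777, minus strand), was at 17.53, 17.6 and 16.4 CPM in sh-Empty and 18.8, 20.3 and 19.97 CPM in sh-Jmjd1a cells (0.20 ± 0.10 (SE), adjusted p = 0.101). It was at 14.4, 17.4 and 19.7 CPM with LacZ, 10.8, 9.62 and 11.6 CPM with JMJD1A(WT) and 24.1, 19.8 and 22.6 CPM with JMJD1A(H1122A), lowest in every JMJD1A(WT) library.

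JMJD1A(WT) thus lowered Tnfrsf23 against LacZ (-0.65 ± 0.12 (SE), adjusted p = 1.16e-04), and the mutant stood well above JMJD1A(WT) (1.02 ± 0.12 (SE), adjusted p = 2.84e-09). The related decoy receptor Tnfrsf22, which may share reads with Tnfrsf23 (not tested), was at 6.86, 5.45 and 7.14 CPM with LacZ, 4.11, 4.07 and 4.16 CPM with JMJD1A(WT) and 7.75, 7.07 and 5.14 CPM with JMJD1A(H1122A). It was lower with JMJD1A(WT) than with LacZ (-0.65 ± 0.18 (SE), adjusted p = 0.0151), lost without LacZ replicate 1 (-0.61), LacZ replicate 3 (-0.58) or without JMJD1A(WT) replicate 3 (-0.67). The mutant was above JMJD1A(WT) (0.70 ± 0.19 (SE), adjusted p = 0.00453), lost without JMJD1A(H1122A) replicate 1 (0.58).

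**Figure D3:**
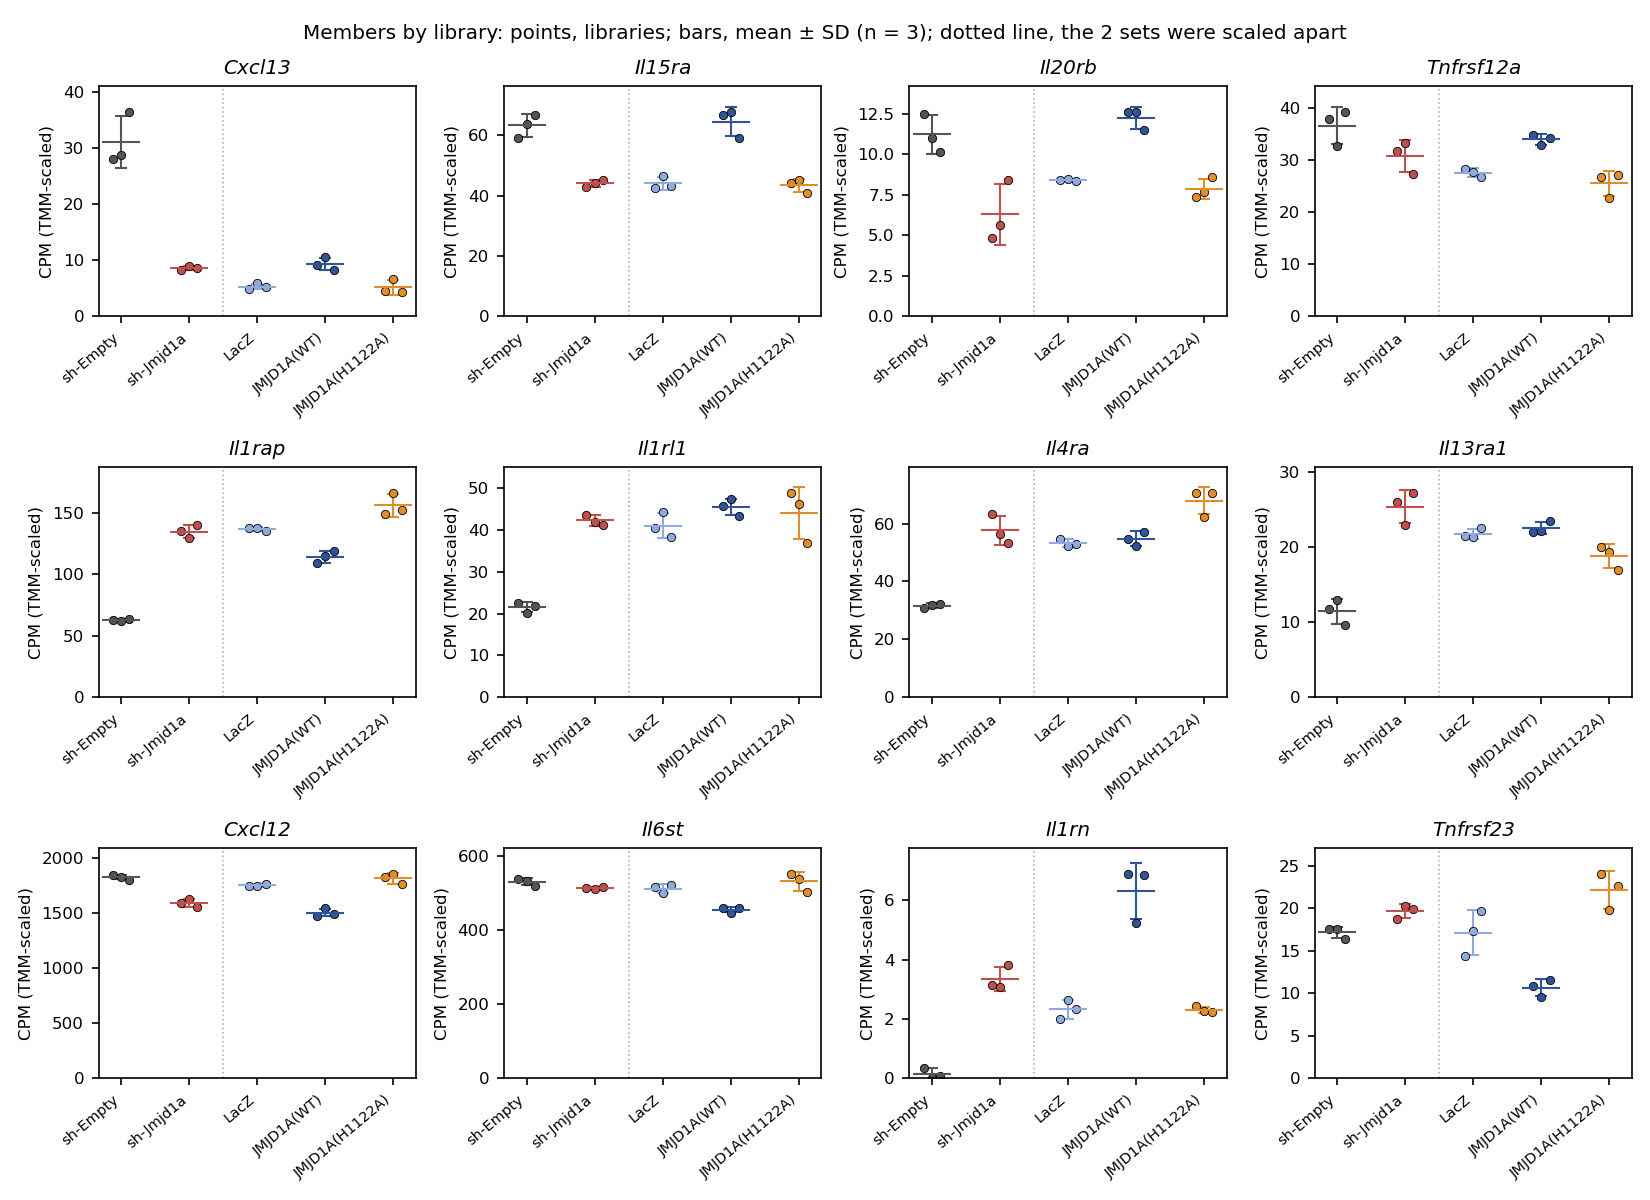
CPM of 12 members (y axis, from 0) in the libraries of the 5 groups (x axis); points are libraries, bars the mean ± SD (n = 3), and a dotted line parts the sets, which were scaled apart. Cxcl13, Il15ra, Il20rb and Tnfrsf12a are higher with JMJD1A(WT) than with LacZ or the mutant in every library, and Il1rap is lower.

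The study's design combines 3 comparisons to find genes that follow JMJD1A and its iron-coordination site. Cxcl13, Il15ra, Il20rb and Tnfrsf12a fell on knockdown, rose with JMJD1A(WT) over LacZ and were lower again with the mutant than with JMJD1A(WT), which is 4 of the 56 members tested in both sets, beside 2.43% of all 12202 genes. Il1rap alone showed the 3 opposite calls, beside 2.07% of all genes. The first count was 3 when any of 4 libraries was left out, since Tnfrsf12a dropped out (log2 fold change on knockdown -0.23 without replicate 1 of sh-Empty, -0.20 without its replicate 3 and -0.17 without replicate 3 of sh-Jmjd1a, and 0.28 for JMJD1A(WT) against LacZ without LacZ replicate 3). The first count was also 3 with DESeq2 and at an adjusted p under 0.01, where the Tnfrsf12a call on knockdown was lost. Without sh-Jmjd1a replicate 3 Il11ra1 joined Il1rap. In these 3 comparisons all 8 adipocyte markers moved the same way as the 4 members, and their part in this was not tested.

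The effect of JMJD1A loss was compared between the sets by a contrast of sh-Jmjd1a minus sh-Empty with LacZ minus JMJD1A(WT), so that equal effects give 0. This contrast passed for 22 of 61 members (10 higher, 12 lower), beside 32.7% of all 12758 genes. Il1rn gave 6.08 ± 0.55 (SE), adjusted p = 5.83e-13, Il18rap 3.95 ± 0.74 (SE), adjusted p = 2.88e-05, Il13ra1 1.25 ± 0.15 (SE), adjusted p = 1.70e-09, and Il1rl1 1.12 ± 0.12 (SE), adjusted p = 9.94e-11, each higher in the knockdown set. Cxcl13 gave -1.08 ± 0.22 (SE), adjusted p = 1.34e-04, and Tnfrsf1b -0.45 ± 0.08 (SE), adjusted p = 1.49e-05. Without single libraries the Il1rn value ran from 5.59 to 7.68 (highest without sh-Empty replicate 1) and that of Il18rap from 3.54 to 4.69 (highest without sh-Empty replicate 2), and both stayed called. Of the members called both on knockdown and for JMJD1A(WT) against LacZ, Il1rn, Cxcl12 and Tnfrsf25 had effects of JMJD1A loss of opposite signs in the 2 sets, whereas for Cxcl13 both were falls and that on knockdown was larger. The 2 sets are separate experiments, and the second virus of the rescue set is not shared by the knockdown set. Kdm3a was at 171 to 185 CPM in sh-Empty against 128 to 138 CPM in sh-Jmjd1a. In the rescue set it was at 1639 to 1768 CPM with JMJD1A(WT) against 116.5 to 122 CPM with LacZ. The change in Kdm3a RNA is thus far larger in the rescue set, where the JMJD1A(WT) libraries also stood far above sh-Empty. JMJD1A protein was not measured in these libraries. The contrast therefore does not set responses to an equal change side by side.

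**Figure D4:**
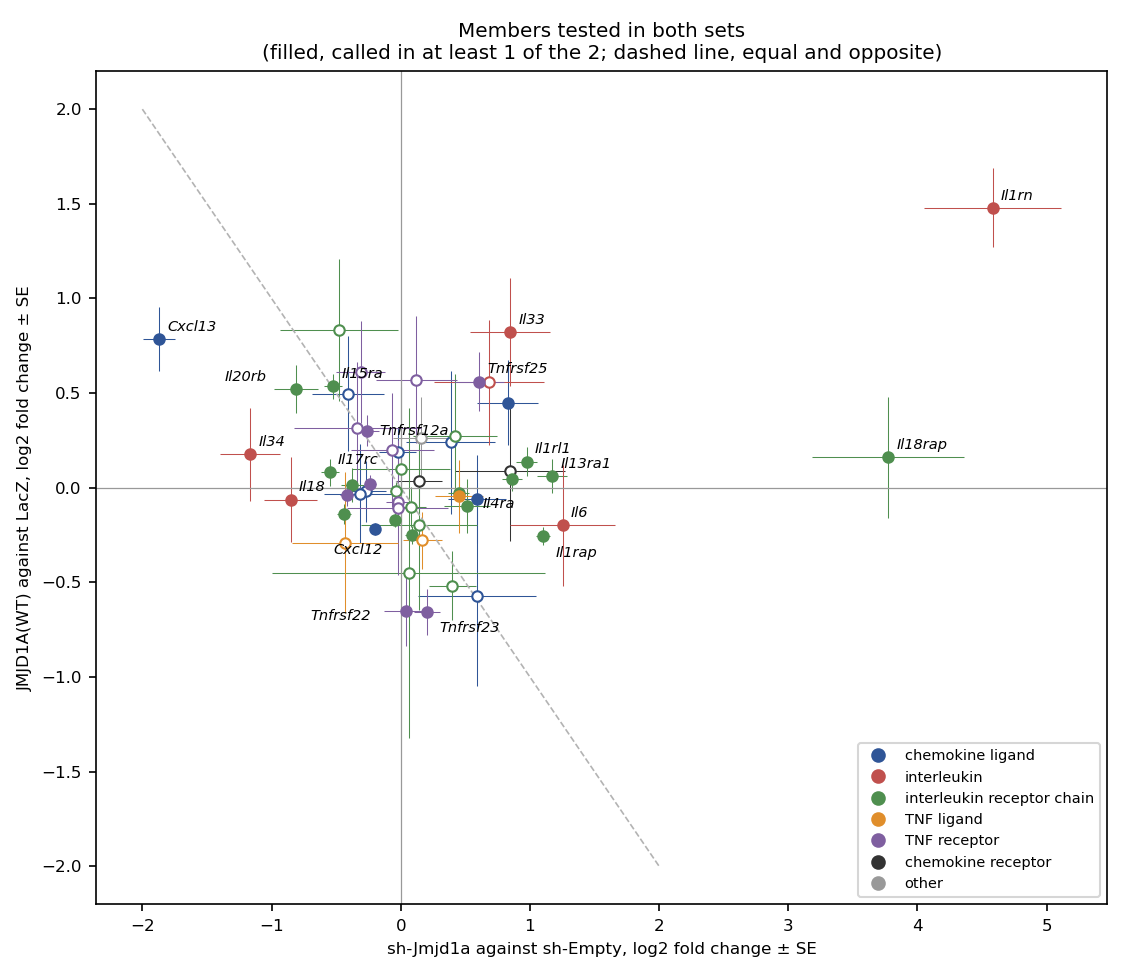
Log2 fold change ± SE on knockdown (x axis) and with JMJD1A(WT) against LacZ (y axis) for the 56 members tested in both sets, coloured by class; filled points were called in at least 1 of these comparisons, and the dashed line marks equal and opposite values. Il1rn lies far from that line, at 4.58 and 1.48, and Il18rap at 3.77 and 0.16, while Il15ra and Il20rb lie close to it.

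Against LacZ, JMJD1A(H1122A) raised Il11ra1 and Il4ra (given above) and Il17rd, Il1rap, Tnfrsf23 and Tnfrsf25. The log2 fold changes were 0.50 ± 0.14 (SE), adjusted p = 0.0171, for Il17rd and 0.19 ± 0.05 (SE), adjusted p = 0.00701, for Il1rap. They were 0.37 ± 0.11 (SE), adjusted p = 0.0276, for Tnfrsf23 and 0.52 ± 0.17 (SE), adjusted p = 0.0405, for Tnfrsf25. The call was lost for Il17rd without LacZ replicate 2 (0.43) or without JMJD1A(H1122A) replicate 1 (0.35) and for Il1rap without JMJD1A(H1122A) replicate 2 (0.14). It was lost for Tnfrsf23 with DESeq2, and without LacZ replicate 1 (0.25), LacZ replicate 2 (0.38), JMJD1A(H1122A) replicate 1 (0.30) or JMJD1A(H1122A) replicate 3 (0.35). It was lost for Tnfrsf25 without LacZ replicate 1 (0.55), LacZ replicate 2 (0.54), LacZ replicate 3 (0.48), JMJD1A(H1122A) replicate 1 (0.46) or JMJD1A(H1122A) replicate 3 (0.39). Adipocyte markers, which all fell in this comparison, summed to 3325 to 3407 CPM with LacZ and 2576 to 2682 CPM with the mutant.

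Read as chosen ligand and receptor pairs, many of the transcribed members lacked a transcribed partner within the pair. Cxcl12 was the highest member but its receptor Cxcr4 had no count in any library, while the scavenger receptor Ackr3 was at 6.61, 9.74 and 8.29 CPM in sh-Empty and 14.48, 13.3 and 14.7 CPM in sh-Jmjd1a cells and rose (0.78 ± 0.14 (SE), adjusted p = 3.43e-05). The receptors Ccr2 and Cxcr3 had no count, and Cxcr2, the receptor of Cxcl1 and Cxcl5, had 4 counts in all. In the opposite direction, receptor chains were abundant where the ligands set beside them were not. Il1r1 was at 136 to 147 CPM in group means, yet Il1b had 2 counts in all and Il1a 26. Tnfrsf1a and Tnfrsf1b were read beside 2 counts of Tnf, Il15ra beside 3 counts of Il15, Il17ra beside none of Il17a, and Il4ra beside 7 counts of Il4. The ligands set beside these receptors are not their only ones. Lta, which encodes lymphotoxin alpha of the TNF family, was low but present in every library, at 0.174 to 1.13 CPM. Pairs with both sides above the filter included Il33 with Il1rl1 and Il1rap, Il6 with Il6ra and Il6st, Tnfsf12 with Tnfrsf12a, and Cxcl13 with Cxcr5. Il33, Il1rl1 and Il1rap all rose on knockdown, but the Il33 call was lost with DESeq2 and when single libraries were left out. They did not move together with the constructs. For JMJD1A(WT) against LacZ only Il1rap passed, as a fall, and with the mutant against JMJD1A(WT) Il33 was lower and Il1rap higher.

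Other genes of these pathways, whose symbols fall outside the rule, were read from lists. Of 19 cytokines and receptors tested on knockdown, 11 rose and 3 fell, beside 22.3% and 23.9% of all genes tested. Those that rose included Lif, a gp130 cytokine (1.34 ± 0.36 (SE), adjusted p = 0.00284), its receptor Lifr (1.64 ± 0.07 (SE), adjusted p = 2.11e-15), Eda2r, a TNF receptor family member (1.55 ± 0.07 (SE), adjusted p = 1.71e-16), and Csf1, the macrophage growth factor (0.63 ± 0.06 (SE), adjusted p = 3.43e-10). Those that fell included Ltbr, the lymphotoxin beta receptor (-0.22 ± 0.06 (SE), adjusted p = 0.00173), and Relt, another TNF receptor family member (-0.53 ± 0.20 (SE), adjusted p = 0.0270). Of 8 genes of the chemokine system 3 rose and 3 fell, among them Cx3cl1, the membrane-bound fractalkine, which fell (-0.73 ± 0.05 (SE), adjusted p = 5.55e-12).

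Rarres2, which encodes the adipokine chemerin, was at 1.67, 1.90 and 2.59 CPM in sh-Empty and 0.785, 0.968 and 1.09 CPM in sh-Jmjd1a cells (-1.14 ± 0.36 (SE), adjusted p = 0.0105). Its receptor Cmklr1 also fell (-0.79 ± 0.25 (SE), adjusted p = 0.0106). With the constructs Rarres2 was at 1.40, 2.34 and 1.70 CPM with LacZ, 4.26, 5.08 and 3.46 CPM with JMJD1A(WT) and 0.313, 0.583 and 0.514 CPM with JMJD1A(H1122A), and both genes were higher with JMJD1A(WT) than LacZ (1.17 for Rarres2, 2.46 for Cmklr1, adjusted p = 9.72e-04 and 1.86e-12).

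Among intracellular components, 8 JAK-STAT genes of 24 rose on knockdown and 7 fell, with Stat2 up (0.98 ± 0.09 (SE), adjusted p = 5.35e-10) and Stat5a down (-0.40 ± 0.05 (SE), adjusted p = 4.65e-08). Of 18 Toll-like receptors, their co-receptors and the adaptors shared with IL-1 receptors, 4 rose and 4 fell. The receptors Tlr2, Tlr3 and Tlr4 rose, Tlr4 by the most (1.07 ± 0.11 (SE), adjusted p = 2.51e-09), as did the kinase Irak1, and Irak2, Map3k7, Tab3 and Ticam1 fell. Of 19 TNF receptor adaptors 6 fell and 13 did not pass, with a median log2 fold change of -0.0092, and of 13 NF-kappaB subunits and inhibitors 3 rose and 3 fell. Over all genes tested on knockdown the shares were 22.3% higher and 23.9% lower. With JMJD1A(WT) against LacZ these 4 lists gave 4 higher and 1 lower, 1 and 1, 1 and 1, and 0 and 1, beside 4.98% higher and 4.52% lower of all genes. Between the constructs they gave 7 higher and 6 lower, 1 and 1, 1 and 3, and 1 and 0, beside 12.1% and 11.7% of all genes.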

How the data were processed

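RNA-seq libraries were made from poly(A) RNA and, per the labels, the authors used fastp for the reads, HISAT2 for alignment (mm9) and featureCounts for counting; the strand setting is not given in the sources used here. The library kit is NEBNext Ultra in the labels and a directional Ultra II kit in the study's methods, so reads of overlapping genes on opposite strands may be shared. The deposited values are raw counts per Entrez Gene number, without normalization. Of 26301 gene numbers, 24191 were given a symbol from a RefSeq table (GRCm38.p6, names only), and 163 of the 167 members were placed in GENCODE M1 on NCBIM37 (mm9); Ccl25, Ccl28, Il4i1b and Tnfrsf22 were not placed. 170 symbols had the stated form, and Tnfsf13os, Il1bos and Cxcl11 were left out since the table does not call them protein-coding. Promoter sequences were RefSeq windows of 300 bases; 14 tested members had no entry.

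Counts were scaled by TMM, filtered with filterByExpr (minimum count 10) and fitted with edgeR 4.0.16 (glmQLFit, robust, bias-adjusted deviances; R 4.3.3, limma 3.58.1, statmod 1.5.0), separately for the 6 knockdown and the 9 rescue libraries, and the difference between them in one fit of 15. Benjamini-Hochberg adjustment was over all genes, at 0.05. Library totals were 11437058 to 25523148 counts, and the low-count members carry the widest counting error; intervals and floors cover counting error only. Counting intervals of ratios are 95% intervals. The method was tested on simulated counts. The members, gene lists and tests were chosen with earlier results of these data known. Per-library values are given for members called in at least 2 of the knockdown, JMJD1A(WT) and mutant comparisons, the 2 highest of each class, Il6, Il1rl1, Il6st and Il15ra, and the 3 largest changes in each direction on knockdown; others (Ccl7, Cxcl5, Ccl2, Ccl9, Il17rc, Il10rb, Il3ra, Il1r1 and Il1rl2) were added after their values were seen. Alternatives were DESeq2 1.42.0, RLE size factors, other filters, the legacy quasi-likelihood, one fit, pairs of groups, thinning, a stricter threshold, the replicate block and leaving out each library. Replicates of a group differed by more than sampling noise (chi-square per degree of freedom 2.07 to 5.44).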

Additional observations from a re-analysis of the deposited data

Results flagged for a closer look

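For 22 members the effect of JMJD1A loss differed between the knockdown set (sh-Jmjd1a against sh-Empty) and the rescue set (LacZ against JMJD1A(WT)) by edgeR's quasi-likelihood test of the difference, at an adjusted p under 0.05. They are 22 of the 61 members tested (36.1%), beside 32.7% of all 12758 genes. The change in Kdm3a itself was far larger between the rescue groups than between the knockdown groups. The values in brackets are log2 differences, knockdown minus rescue. This difference was above 0 for Cxcl5 (1.29), Il13ra1 (1.25), Il18rap (3.95), Il1rap (0.86), Il1rl1 (1.12), Il1rn (6.08), Il33 (1.68), Il4ra (0.92), Il6ra (0.43) and Tnfrsf25 (1.18). It was below 0 for Ccl17 (-2.51), Cxcl12 (-0.41), Cxcl13 (-1.08), Il10rb (-0.35), Il17ra (-0.57), Il17rc (-0.46), Il18 (-0.91), Il34 (-0.98), Il6st (-0.20), Tnfrsf1a (-0.21), Tnfrsf1b (-0.45) and Tnfrsf23 (-0.44).

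The lowest counts were those of Ccl17, a chemokine of T cells, which was too low to test in either set and entered only the fit of all libraries. It had 8 counts over the 3 sh-Jmjd1a libraries and 31 over the 3 sh-Empty libraries, a ratio of CPM of 0.273 (95% counting interval 0.108 to 0.606). With JMJD1A(WT) it had 21 counts against 28 with LacZ, a ratio of CPM of 0.628 (95% counting interval 0.339 to 1.145). Without LacZ replicate 3 the Ccl17 difference was -1.98 and no longer passed. For Il10rb the call was lost without sh-Empty replicate 2 (-0.34), sh-Empty replicate 3 (-0.32), sh-Jmjd1a replicate 2 (-0.28), LacZ replicate 1 (-0.33), JMJD1A(WT) replicate 1 (-0.33) or without JMJD1A(WT) replicate 3 (-0.31). For Tnfrsf23 it was lost without sh-Empty replicate 1 (-0.43), sh-Empty replicate 2 (-0.42), sh-Jmjd1a replicate 1 (-0.41), LacZ replicate 2 (-0.43), LacZ replicate 3 (-0.33) or without JMJD1A(WT) replicate 2 (-0.39). For Il34 it was lost without sh-Empty replicate 3 (-0.79) or without LacZ replicate 2 (-0.82), for Il18 without sh-Empty replicate 3 (-0.80), sh-Jmjd1a replicate 3 (-0.77) or without JMJD1A(WT) replicate 3 (-0.83) and for Tnfrsf1a without sh-Empty replicate 1 (-0.17).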

How the results depend on the processing

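Of 86 called values of members, 61 stayed called with the same sign under every alternative, 25 were lost under at least 1, and none of 1369 alternative values changed sign. At an adjusted p under 0.01 the members higher on knockdown were 8 and those higher with JMJD1A(H1122A) than LacZ 3, by construction of a stricter threshold; 16 of 64 calls were lost there. DESeq2 lost 8 of 64. Those were Ccl7, Il33, Tnfrsf12a and Tnfsf9 on knockdown, Il13ra1, Il6ra and Tnfsf12 for the mutant against JMJD1A(WT), and Tnfrsf23 for the mutant against LacZ. Thinning to the smallest total lost 8 of 86, no filter on low counts 2 and the legacy quasi-likelihood 1. RLE size factors, one fit of all libraries, a stricter filter and fits of only the 2 groups lost none. When each library was left out in turn, members higher on knockdown numbered 9 to 14 and lower 11 to 12. Those higher with JMJD1A(WT) than LacZ numbered 4 to 7 and lower 5 to 6. For JMJD1A(H1122A) against JMJD1A(WT) they were 10 to 12 and 6 to 8, and against LacZ 3 to 5 higher. Members following JMJD1A in 3 comparisons numbered 3 to 4, those opposite 1 to 2, and those called for the difference 19 to 23. The lowest counts came without sh-Empty replicate 3 (9 higher on knockdown) and without JMJD1A(H1122A) replicate 1 (3 higher than LacZ), and the count of opposite members was 2 without sh-Jmjd1a replicate 3. Deviations from the group means correlated weakly, at -0.0442 to 0.0541 for same-numbered libraries of different groups and -0.0566 to 0.0645 for the others. In the rescue set, however, replicates 1 and 2 gave 0.0222 to 0.0541 where numbers matched and -0.0566 to -0.0251 where they were crossed. Replicate 3 there gave -0.015 to -2e-04 where numbers matched and -0.0167 to 0.0227 where they were crossed. Deviations within a group sum to 0, so matched and crossed values are not independent. Whether replicate numbers pair the libraries is therefore not settled. Fitting the replicate block lost 1 of 86 calls (Tnfsf9 on knockdown) and moved no count by over 1.5 times. Depth limits members near the filter, such as Il18rap and Il1rn, whose sh-Empty libraries held 5 counts each over the group.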

Other observations

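Il11ra2, the paralog of Il11ra1, stood high in 1 library of every group. It was at 8.28, 1.38 and 1.68 CPM in sh-Empty, 7.68, 1.94 and 1.86 CPM in sh-Jmjd1a, 2.20, 7.505 and 1.70 CPM in LacZ, 2.28, 5.16 and 1.79 CPM in JMJD1A(WT) and 1.96, 2.33 and 8.65 CPM in JMJD1A(H1122A) libraries. The high libraries were replicate 1 in the knockdown set, replicate 2 with LacZ and JMJD1A(WT), and replicate 3 with JMJD1A(H1122A). Exons of the opposite-strand gene Ccl27b cover 14.96% of those of Il11ra2.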
